A study of Mus musculus with 14 samples.

Results

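The effect of deleting Cul3 in mouse liver was measured as the mean of the differences between Cul3 knockout (KO) and control (WT) libraries on 2 diets. All 14 libraries of the series entered this contrast, 7 KO and 7 WT, and it was estimated for 10870 genes of the 43548 in the deposited table. Every mouse carried floxed Cul3 alleles on a C57BL/6 background. For 13 weeks mice ate either Western diet (WD) or control diet (CD). They then received an adeno-associated virus (AAV) by tail vein and stayed on their diet for another 5 weeks. KO mice received AAV-TBG-Cre, in which the hepatocyte promoter TBG drives Cre recombinase, and WT mice received AAV-TBG-Null, so the controls carried both the floxed alleles and a virus. The KO libraries numbered 4 on WD and 3 on CD, and the WT libraries likewise 4 on WD and 3 on CD. TBG is active in hepatocytes and not in the other cells of the liver. Sex, age and any pooling of animals are not stated. No label ties the libraries to different animals. The p-values therefore reflect the variation among these libraries, part of which may be technical.

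Cullin 3 is the scaffold of a family of ubiquitin ligases. It binds substrate adaptors of the BTB class at one end and a RING protein with the ubiquitin-conjugating enzyme at the other. Its best known adaptor in liver is KEAP1, which captures the transcription factor NRF2 (gene Nfe2l2) for degradation. When KEAP1 is inactivated, NRF2 accumulates and raises transcription of genes for glutathione use, quinone reduction, NADPH supply and drug export through antioxidant response elements.

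RNA was read by 3′ tag sequencing (QuantSeq 3′ FWD), which counts fragments near the poly(A) end of transcripts. The authors deposited FPKM, that is fragments scaled by transcript length and library size, so levels are compared here between libraries for a gene and never between genes. Values were tested on log2(FPKM + 1) with limma. A gene was called at a Benjamini-Hochberg adjusted p under 0.05 over all genes tested, and differences are KO minus WT in log2(FPKM + 1), averaged over the diets with equal weight. A number in parentheses after a gene is this log2 difference unless another quantity is named. In bulk tissue, fewer cells of a type and less RNA per cell cannot be told apart.

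The libraries differed in more than genotype. Shared steps among their lowest values were used to divide them into 2 sets, a number fixed in advance. Set 1 held 8 libraries and set 2 held 6, a division that no label explains. For pairs within set 1, 3.01 to 11.8% of such low genes stood at a common ratio. The share was 2.02 to 18.1% within set 2 and 1.40 to 3.82% between sets, so these ranges overlapped. Every KO library on CD was in set 2 and every WT library on CD in set 1, so the effects of set and of genotype cannot be told apart on CD. On WD, KO replicates 1, 2 and 4 and WT replicates 3 and 4 were in set 1, and KO replicate 3 and WT replicates 1 and 2 in set 2, although a second mark put KO replicates 3 and 4 the other way round. The averaged contrast was therefore also fitted with library set as a term, called below the fit with library set. That term is estimated from the WD libraries alone, where KO replicate 3 is the only KO library in set 2. It is assumed to be the same on CD, where the fit cannot separate set from genotype. Each library's 20 highest genes took 30.1 to 35.1% of the summed FPKM in KO and 37.4 to 44.7% in WT, without overlap.

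Cul3 itself (ENSMUSG00000004364, mm10 chromosome 1, 80264923 to 80340480, minus strand) measured 11.3 to 26.6 FPKM in KO (median 18.5) and 7.46 to 29.5 FPKM in WT (median 23.9). The 2 groups overlapped and the averaged difference was -0.08 ± 0.22 SE (limma adjusted p = 0.852, exact permutation within diets, two-sided p = 0.807), made of 0.65 on WD and -0.797 on CD. Which exons Cre removes is not stated, and the 3′ end that the assay reads need not be among them. The level therefore checks neither the deletion nor the labels. Among 32 tested genes of the cullin 3 ligase and NRF2 control list, 4 rose and 0 fell: the adaptors Klhl13 (0.95) and Keap1 (0.66), the NEDD8-conjugating enzyme Ube2m (0.75), which activates cullins, and the NRF2 relative Nfe2l1 (0.62). Over all genes 13.4% were called up and 1.67% down, so this count is near the background (1 rise and 2 falls after quantile normalization). Nfe2l2 measured 29.7 to 51.9 FPKM in KO (median 37.2) and 20.3 to 47.6 FPKM in WT (median 30.3), with a difference of 0.28 (adjusted p = 0.209). Quantile normalization ended the calls of Keap1 (adjusted p = 0.114), Ube2m (0.110) and Nfe2l1 (0.238), and the call of Nfe2l1 also ended in the fit with library set (0.108) and without 8 of the 14 libraries taken singly (at most 0.1002).

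Averaged over the diets, 1640 of 10870 genes were called (15.1%), 1459 higher and 181 lower in KO. The called rises had a median difference of 0.74 and the called falls of -0.897. Beyond a difference of 1 in either direction there were 383 rises and 80 falls. Beyond 2 there were 61 rises and 34 falls, and beyond 3 there were 19 rises and 19 falls, so the surplus of rises shrank as changes grew. Many of the largest falls were paralogs of the Mup family, among which reads may be shared. All 7 KO libraries lay above all 7 WT libraries for 363 called genes and below them for 42 (3.36% and 0.414% of all genes tested had such non-overlapping groups). One library weighed on the count of falls: without WT on WD 2 there were 1834 rises and 327 falls.

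That surplus of rises depended on scaling. The median gene stood 0.18 higher in KO. Quantile normalization moved this median to -0.006 and gave 533 rises (4.9% of genes) and 351 falls (3.23%), which put the share of rises among calls at 60.3% against 88.96% for the values as deposited. Of those calls, 701 were among the 1640 in the same direction. In the fit with library set 1120 rose (10.3%) and 139 fell (1.28%), 1061 of them shared. A small difference is to be read against that median, and below, calls that ended under quantile normalization, in the fit with library set or without 1 library are named with their p.

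The shares of 2 abundant transcript families differed in opposite directions. The major urinary protein (Mup) genes, which encode lipocalins that carry pheromones, together took 2.35 to 8.302% of the summed FPKM in KO and 20.1 to 25.9% in WT. The mu-class glutathione S-transferase (Gstm) genes took 5.04 to 8.54% of the summed FPKM in KO and 0.362 to 0.581% in WT. Neither family overlapped between the genotypes, and each difference had the smallest p that the 1400 arrangements of genotype within diet allow (exact permutation, two-sided p = 0.00143 for both). FPKM depends on transcript length here, so these are shares of FPKM, not of RNA. With both families left out of the ranking, the 20 highest genes took 22.6 to 27.5% of the summed FPKM in KO and 22.7 to 27.3% in WT, which overlapped (exact permutation p = 0.469).

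**Figure D1:**
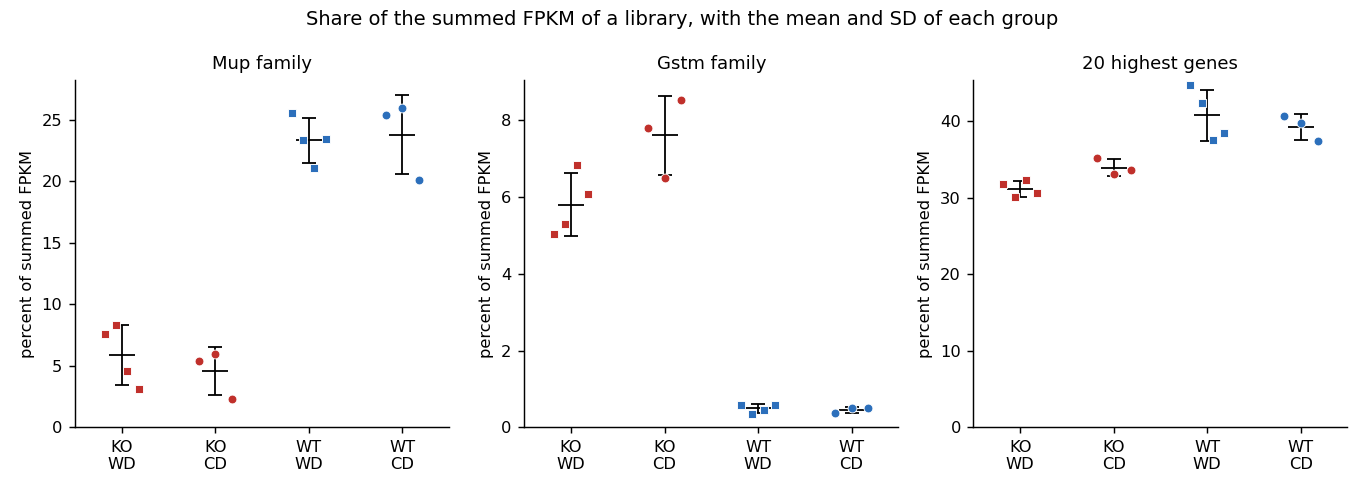
Percent of each library's summed FPKM held by the Mup genes, by the Gstm genes and by its 20 highest genes, for KO on WD and CD (red) and WT on WD and CD (blue). Points are libraries, and bars give the mean and SD of a group. In all 3 panels every KO library is separate from every WT library, with the Mup share at most 8.302% in KO and at least 20.1% in WT.

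The diets share no library, so their differences come from separate measurements. On CD genotype coincides with library set, so differences and calls there cannot be credited to the deletion alone. Of 653 genes called up on WD (6.01% of genes), 521 were also higher in KO on CD (79.8%, against 60.8% of all genes tested). Of 109 called down on WD (1.0%), 87 were lower in KO on CD (79.8% against 39.02%). Starting from CD, 1000 of 1269 genes called up there (11.7% of genes) were higher on WD (78.8% against 70.6%). Of 364 called down on CD (3.35%), 115 were lower on WD (31.6% against 29.3%), a share near the background. Of the 1640 genes called on the average, 303 were also called on both diets, 264 on WD alone, 720 on CD alone and 353 on neither.

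**Figure D2:**
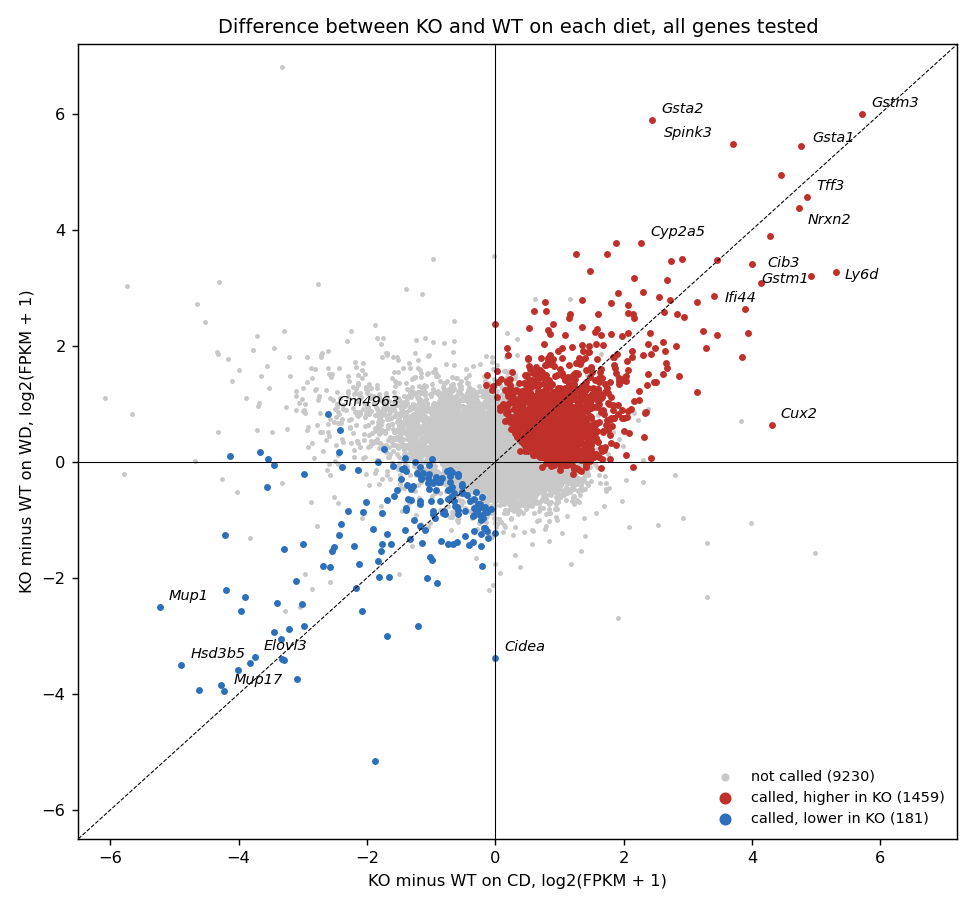
KO minus WT difference on CD (horizontal) against that on WD (vertical), in log2(FPKM + 1), for 10870 genes. Genes called on the average are red (1459, higher in KO) or blue (181, lower in KO), the dashed line marks equal differences, and Gstm3 and Hsd3b5 lie near it at opposite ends while Cux2 and Cidea lie near an axis.

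Glutathione S-transferases, which join glutathione to electrophiles, made up much of the largest rises. Among 21 tested members of that list, 14 rose and 1 fell, with a median difference of 0.91 (12 rises and 2 falls after quantile normalization, 14 and 0 in the fit with library set). Gstm1 (mm10 chromosome 3, 108012255 to 108017973, minus strand) measured 19767 to 34447 FPKM in KO (median 26301) and 1525 to 2584 FPKM in WT (median 2149), a log2 difference of 3.71 ± 0.15 SE (limma adjusted p = 1.04e-08). Gstm3 (mm10 chromosome 3, 107963696 to 107969283, minus strand) measured 2690.2 to 5669 FPKM in KO (median 3823) and 16.2 to 108 FPKM in WT (median 79.3) and its difference of 5.85 was the largest among called genes whose libraries did not overlap. For both genes the lowest KO library stood far above the highest WT library. The neighbours Gstm2 (3.26) and Gstm4 (2.69) rose as well, and Gstm6 rose by a smaller 0.84 with overlapping groups.

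Of the 4 alpha-class genes tested, 3 rose. Gsta1 measured 143 to 392 FPKM in KO (median 208) and 1.22 to 14.2 FPKM in WT (median 5.15), a log2 difference of 5.11 ± 0.30 SE (limma adjusted p = 1.61e-07). Gsta2 measured 471 to 1348 FPKM in KO (median 733) and 2.397 to 161 FPKM in WT (median 44.6), with differences of 5.88 on WD and 2.44 on CD. Gsta4 rose as well (1.53, adjusted p = 0.00425), while Gsta3 did not pass (-0.53, adjusted p = 0.131), made of -0.08 on WD and -0.98 on CD; both were named after their values were seen. For Gsta1 and Gsta2 the spread relative to the level was larger among WT than among KO libraries. These genes are close paralogs whose reads may be shared, so the sums over each family were tested too. The summed Gstm FPKM of 7 genes differed by 3.75 and the summed Gsta FPKM of 4 genes by 1.17 on the log2 scale (exact permutation, two-sided p = 0.00143 for each). The Gsta difference was 1.97 on WD and 0.38 on CD. The pi-class gene Gstp1 had a difference of 0.28 (adjusted p = 0.423), made of 1.36 on WD and -0.798 on CD. The microsomal transferase Mgst1, named after its value was seen, was the gene that fell (-0.92), and that call ended in the fit with library set (adjusted p = 0.143) and without 11 of the libraries taken singly (at most 0.107).

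Around the transferases, enzymes that make glutathione and repair oxidized proteins were higher in KO. In the glutathione, thioredoxin and quinone list 11 rose and 0 fell among 21 tested members, with a median of 0.43 (7 rises and 1 fall after quantile normalization, 8 and 0 in the fit with library set). The quinone reductase Nqo1 (mm10 chromosome 8, 107388225 to 107403206, minus strand) measured 17.4 to 50.2 FPKM in KO (median 30.5) and 2.05 to 6.21 FPKM in WT (median 4.15), a log2 difference of 2.66 ± 0.20 SE (limma adjusted p = 1.79e-06), without overlap. Biliverdin reductase Blvrb measured 236 to 435 FPKM in KO (median 353) and 77.6 to 113 FPKM in WT (median 89.6), a log2 difference of 1.898 ± 0.13 SE (limma adjusted p = 9.27e-07). Glutathione peroxidase Gpx2 measured 1.21 to 7.43 FPKM in KO (median 3.01) and was listed at 0 in all 7 WT libraries (adjusted p = 9.19e-05). Glutathione synthetase Gss (1.09) and the sulfiredoxin Srxn1 (1.82) rose.

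The rate-limiting enzyme of glutathione synthesis showed a smaller change. Its catalytic subunit Gclc measured 79.6 to 330.2 FPKM in KO (median 170.5) and 68.1 to 121 FPKM in WT (median 94.7), a log2 difference of 0.68 ± 0.17 SE (limma adjusted p = 0.0153), with 1.49 on WD and -0.12 on CD. Its modifier subunit Gclm measured 204 to 407 FPKM in KO (median 237) and 119.9 to 289.9 FPKM in WT (median 149), a log2 difference of 0.78 ± 0.21 SE (limma adjusted p = 0.0221), and thioredoxin reductase Txnrd1 had a difference of 0.72 (adjusted p = 0.0182). Quantile normalization ended the calls of Gclc (adjusted p = 0.0861), Gclm (0.133) and Txnrd1 (0.129). Calls of Gclm (0.0703) and Txnrd1 (0.0703) also ended in the fit with library set, and of Gclm (without WT on CD 3 and KO on CD 3, up to adjusted p = 0.0620) and Txnrd1 (without WT on CD 3 and KO on CD 3, up to adjusted p = 0.0526) when a library was left out. Heme oxygenase Hmox1 was listed at 0 in all 14 libraries and was not tested.

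Of 12 tested genes of NADPH supply, 3 rose and 0 fell (13.4% of all genes tested were called up; 1 rise and 0 falls after quantile normalization), with a median of 0.06, below that of all genes. The pentose phosphate enzyme Pgd measured 20.3 to 62.2 FPKM in KO (median 45.9) and 8.39 to 22.4 FPKM in WT (median 13.1), a log2 difference of 1.27 ± 0.15 SE (limma adjusted p = 8.88e-05). The first enzyme of that pathway, G6pdx, had a difference of 0.08 (adjusted p = 0.881), and malic enzyme Me1 one of 0.04 (adjusted p = 0.960), made of 0.91 on WD and -0.83 on CD.

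Conjugation and export genes were also among the rises. In the glucuronidation list 7 rose and 0 fell among 15 tested members (median 0.78, 7 rises and 0 falls after quantile normalization), led by the UDP-glucuronosyltransferases Ugt2b36 (0.96), Ugt2b1 (0.88) and Ugt2b37 (1.56), whose reads may be shared among paralogs. Ugdh, which makes their cosubstrate, had a difference of 0.89 (adjusted p = 0.0944) made of 2.42 on WD and -0.64 on CD, and was called in the fit with library set (adjusted p = 0.000264). Among carbonyl, aldehyde and epoxide enzymes 8 rose and 1 fell of 24 (median 0.30, 6 rises and 4 falls after quantile normalization). Carbonyl reductase Cbr1 measured 55.3 to 109 FPKM in KO (median 82.2) and 8.11 to 21.7 FPKM in WT (median 18.7), a log2 difference of 2.27 ± 0.19 SE (limma adjusted p = 4.26e-06). Epoxide hydrolase Ephx1 (1.82), the aldo-keto reductase Akr1c19 (1.59) and Cbr3 (1.49) rose, and Akr1c6, named after its value was seen, fell (-0.85, adjusted p = 0.0643 in the fit with library set).

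Of 14 tested efflux pumps, 8 rose and 0 fell (median 0.697, 5 rises and 0 falls after quantile normalization). The basolateral pump Abcc4 (mm10 chromosome 14, 118482692 to 118706219, minus strand) measured 5.93 to 8.82 FPKM in KO (median 7.83) and 0.104 to 0.723 FPKM in WT (median 0.183), a log2 difference of 2.75 ± 0.15 SE (limma adjusted p = 7.68e-08). Abcc3, which also exports conjugates to blood, measured 25.3 to 34.2 FPKM in KO (median 31.8) and 5.001 to 14.1 FPKM in WT (median 8.88), a log2 difference of 1.67 ± 0.15 SE (limma adjusted p = 9.16e-06). Both were separate in all libraries, as was the drug pump Abcb1a (1.05). The sterol exporter subunits Abcg5 and Abcg8 had averages of 0.93 and 0.93, made of 0.19 on WD and 1.67 on CD for Abcg5 and 0.35 on WD and 1.501 on CD for Abcg8.

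**Figure D3:**
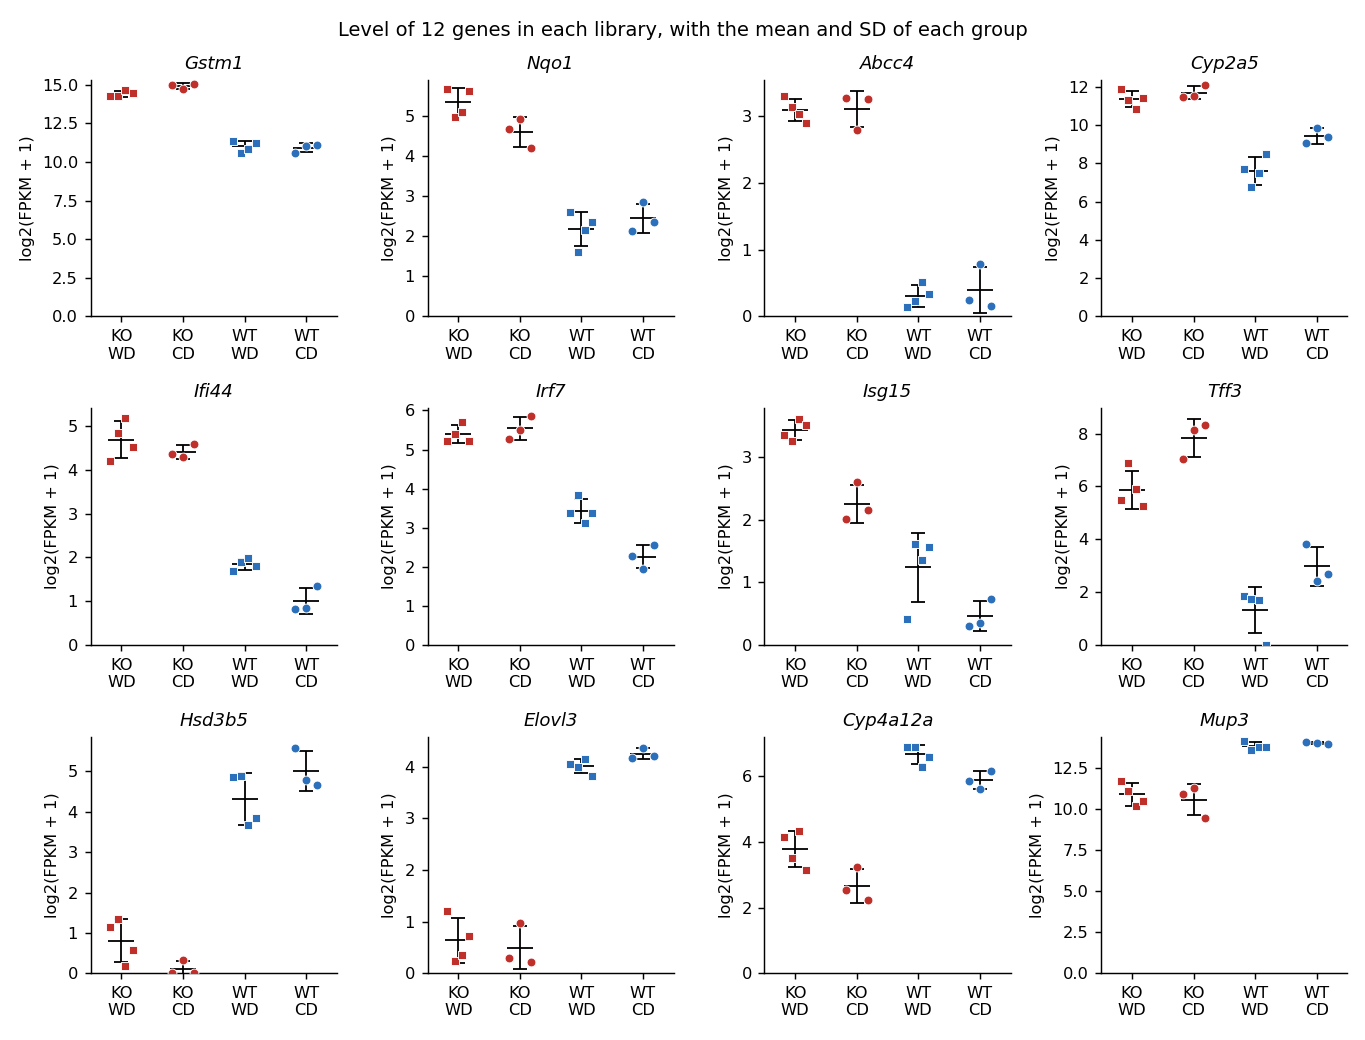
Level of 12 genes in log2(FPKM + 1) in each library, for KO on WD and CD (red) and WT on WD and CD (blue). Points are libraries, and bars give the mean and SD of a group (n = 4 on WD, n = 3 on CD); in each panel the 7 KO libraries lie on one side of the 7 WT libraries.

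Promoters of these genes were searched for the core of the antioxidant response element, TGACNNNGC, on both strands in the 250 bases before each RefSeq start (GRCm38.p6, the build also called mm10). Windows that hold it are shown for Gclm, Txnrd1 and Abcc4 because these members rose in the lists above, with the match in capitals, 5′ to 3′ on the gene's strand.
Gclm (chr3:122245378-122245476, plus strand): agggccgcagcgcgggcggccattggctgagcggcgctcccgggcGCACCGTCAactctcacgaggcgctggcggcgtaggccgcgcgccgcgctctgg
Txnrd1 (chr10:82859069-82859167, plus strand): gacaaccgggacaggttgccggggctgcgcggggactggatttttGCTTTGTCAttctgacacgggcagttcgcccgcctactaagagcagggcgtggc
Abcc4 (chr14:118706220-118706289, minus strand): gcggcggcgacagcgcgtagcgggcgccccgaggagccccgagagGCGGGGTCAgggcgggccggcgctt
The matches began 134, 92 and 25 bases before the start. Over the 6 lists of glutathione, NADPH, glucuronidation, carbonyl and efflux genes, 6 of 45 of the called rises with a promoter in the table held it (13.3%), against 14.3% of 7414 tested genes with a promoter and 10.2% of 32851 promoters in all. The share among the rises was thus near the background for a window of this length.

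Cytochrome P450 genes oxidize drugs and steroids. Of 28 tested hepatic P450 and P450-related genes 11 rose and 1 fell (median 0.42, 8 rises and 3 falls after quantile normalization). Cyp2a5, the coumarin hydroxylase (mm10 chromosome 7, 26835305 to 26843548, plus strand), measured 1850.2 to 4412 FPKM in KO (median 2797) and 106 to 919 FPKM in WT (median 355), a log2 difference of 3.02 ± 0.25 SE (limma adjusted p = 4.26e-06), and Cyp1a2, the caffeine demethylase, 1954 to 3949 FPKM in KO (median 2544) and 229 to 1189 FPKM in WT (median 611), a log2 difference of 2.08 ± 0.18 SE (limma adjusted p = 8.47e-06). Both were separate in all libraries, and their WT libraries were lower on WD than on CD on average (212 and 706 FPKM for Cyp2a5). Cyp2c44 (1.41) and Cyp2a22 (2.904) rose. Cyp2e1, the ethanol-inducible P450, measured 36.7 to 78.6 FPKM in KO (median 72.4) and 134 to 228 FPKM in WT (median 167) and fell (log2 difference -1.34 ± 0.17 SE, limma adjusted p = 0.000140). The summed FPKM of 15 Cyp2c genes differed by 0.94 on the log2 scale (exact permutation p = 0.00143). The sum of 9 Cyp3a genes differed by -0.404 (exact permutation p = 0.574), made of 0.89 on WD and -1.701 on CD.

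Genes that are higher in male than in female mouse liver made up most of the largest falls. In that list 0 rose and 22 fell among 28 tested members, with a median of -2.82 (0 rises and 22 falls after quantile normalization, 0 and 22 in the fit with library set, and 22 to 23 falls when a library was left out). Many members are Mup paralogs, among which reads may be shared. Outside that family, the steroid dehydrogenase Hsd3b5 (mm10 chromosome 3, 98618634 to 98630252, minus strand) measured 0 to 1.54 FPKM in KO (median 0.265) and 11.8 to 46.6 FPKM in WT (median 26.6), a log2 difference of -4.20 ± 0.26 SE (limma adjusted p = 2.38e-07). Elovl3, an elongase of very long chain fatty acids (mm10 chromosome 19, 46131897 to 46135694, plus strand), measured 0.165 to 1.32 FPKM in KO (median 0.284) and 13.2 to 19.7 FPKM in WT (median 16.8), a log2 difference of -3.56 ± 0.18 SE (limma adjusted p = 5.11e-08), and Cyp4a12a, a fatty acid hydroxylase, 3.72 to 19.3 FPKM in KO (median 8.51) and 48.5 to 119 FPKM in WT (median 76.7), a log2 difference of -3.05 ± 0.22 SE (limma adjusted p = 1.15e-06). The KO and WT libraries of all 3 genes were separate by a wide margin. Complement C6 (-1.59) also fell, with every KO library below every WT library. So did the N-acetyltransferase-like gene Cml5 (-3.35), which is not on that list but is among the 12 largest non-overlapping falls.

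Within the Mup family, Mup3 measured 714 to 3418 FPKM in KO (median 1968) and 12592 to 18489.6 FPKM in WT (median 15882), a log2 difference of -3.199 ± 0.28 SE (limma adjusted p = 8.31e-06). Mup17 (-4.09), Mup16 (-4.06), Mup1 (-3.87), Mup15 (-3.65), Mup9 (-3.42), Mup11 (-3.37), Mup8 (-3.26) and Mup7 (-3.205) were the other Mup genes among the 12 largest non-overlapping falls. The sum over 21 Mup genes was 11681 to 36848 FPKM in KO and 100450.4 to 133724 FPKM in WT, a difference of -2.35 on the log2 scale. The sum depends less than single genes on how reads were divided among paralogs, and its difference was -2.197 on WD and -2.49 on CD. The alpha-1-antitrypsin paralog Serpina1e had a difference of -4.27 with overlapping groups (named after its value was seen), while the sum of 5 Serpina1 genes differed by -0.48. That sum and the sum of the Cyp4a12 pair (-3.07) had the same smallest possible p (exact permutation p = 0.00143).

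Of 23 female-biased liver genes listed, 13 were tested, of which 7 rose and 1 fell (median 0.76, 5 rises and 1 fall after quantile normalization, 9 and 0 in the fit with library set). A gene could reach the level to be tested through its KO libraries alone, which favours members that rise. Cyp2a4, a steroid hydroxylase, measured 6.84 to 21.3 FPKM in KO (median 11.95) and 0.135 to 3.68 FPKM in WT (median 1.32), a log2 difference of 2.38 ± 0.26 SE (limma adjusted p = 5.00e-05), and the steroidogenic Cyp17a1 8.07 to 35.3 FPKM in KO (median 12.3) and 1.26 to 7.48 FPKM in WT (median 3.17), a log2 difference of 2.18 ± 0.25 SE (limma adjusted p = 6.87e-05). Both genes were separate in all libraries. Cyp2c69 rose too (0.96). Cyp3a41b, named after its value was seen, fell (-1.24), a call that ended in the fit with library set (adjusted p = 0.120) and without 5 libraries taken singly (at most 0.0826).

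In liver these sex differences are known to be set by the rhythm of growth hormone through STAT5. Of 16 tested genes of that axis 1 rose and 0 fell (median 0.098), while 13.4% of all genes tested were called up and 1.67% down. The gene that rose was the prolactin receptor Prlr, 15.9 to 56.3 FPKM in KO (median 31.2) and 7.09 to 23.3 FPKM in WT (median 13.6), a log2 difference of 1.18 ± 0.21 SE (limma adjusted p = 0.00212). The receptor Ghr had a difference of -0.81 (adjusted p = 0.0690), made of -0.02 on WD and -1.61 on CD, and passed with quantile normalization (adjusted p = 0.0340). Stat5b (0.07, adjusted p = 0.902), the hormone's target Igf1 (-0.07, adjusted p = 0.728) and the STAT5-controlled repressor Bcl6 (0.298, adjusted p = 0.533), did not pass. No match to the STAT element TTCNNNGAA was found in the 15 promoters in the table of male-biased genes that fell, against 7.27% of tested genes, in the 250 bases searched.

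Interferon-stimulated genes rose as a group. Of 31 tested members 27 rose and 0 fell, with a median of 1.21 (22 rises and 0 falls after quantile normalization, 24 and 0 in the fit with library set, and 22 to 27 rises when a library was left out). In 18 of the 31 every KO library lay above every WT library, against 3.36% of all genes tested. Ifi44 (mm10 chromosome 3, 151730922 to 151749960, minus strand) measured 17.5 to 35.3 FPKM in KO (median 22.1) and 0.779 to 2.98 FPKM in WT (median 2.22), a log2 difference of 3.13 ± 0.16 SE (limma adjusted p = 5.63e-08). Irf7, the factor that amplifies type I interferon transcription (mm10 chromosome 7, 141262706 to 141266481, minus strand), measured 36.3 to 57.2 FPKM in KO (median 40.98) and 2.86 to 13.3 FPKM in WT (median 7.73), a log2 difference of 2.62 ± 0.16 SE (limma adjusted p = 2.00e-07). The medians of the list were 1.14 on WD and 1.26 on CD.

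Antiviral effectors moved in the same direction. The ubiquitin-like Isg15 measured 3.02 to 11.3 FPKM in KO (median 8.63) and 0.231 to 2.06 FPKM in WT (median 0.671), a log2 difference of 1.998 ± 0.20 SE (limma adjusted p = 1.95e-05). The antiviral Ifit3 measured 1.57 to 7.105 FPKM in KO (median 3.76) and 0 to 1.08 FPKM in WT (median 0.661), a log2 difference of 1.501 ± 0.22 SE (limma adjusted p = 0.000601), and the RNA sensor Oas1a 1.12 to 5.66 FPKM in KO (median 2.56) and 0 to 1.46 FPKM in WT (median 0.287), a log2 difference of 1.34 ± 0.29 SE (limma adjusted p = 0.00802). Rtp4 (1.88) and Ifi27l2a (2.397) rose, with every KO library above every WT library. Their promoters were searched on both strands, in the same window, for the repeat of the interferon-stimulated response element, written as TTTC, any 2 bases and TTTC again. Overlapping matches run together in the capitals.
Isg15 (chr4:156200830-156200941, minus strand): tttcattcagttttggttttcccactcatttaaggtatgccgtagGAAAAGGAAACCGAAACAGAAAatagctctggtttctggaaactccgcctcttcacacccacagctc
Ifit3 (chr19:34583328-34583461, plus strand): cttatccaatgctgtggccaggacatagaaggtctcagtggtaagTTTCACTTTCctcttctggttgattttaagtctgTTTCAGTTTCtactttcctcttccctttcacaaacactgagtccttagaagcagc
Oas1a (chr5:120907526-120907590, minus strand): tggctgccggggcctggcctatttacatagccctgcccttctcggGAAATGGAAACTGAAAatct
Isg15 held 3 overlapping matches, Ifit3 2 separate ones and Oas1a 2 overlapping ones. Of the 16 rises of the list with a promoter in the table, 9 held the repeat (56.2%), against 3.26% of tested genes with a promoter and 2.98% of all promoters. The repeat is a feature of how the list's members are known to be regulated, so its share describes the list and was not tested.

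Antigen-processing genes changed in part. Of 15 tested, 5 rose and 0 fell (median 0.43, 3 rises and 0 falls after quantile normalization, 3 rises and 0 falls without KO on CD 3). The rises included the immunoproteasome subunits Psmb10 (1.23) and Psmb8 (1.12) and the proteasome activator Psme1 (0.89). The class I heavy chain H2-K1 (0.38, adjusted p = 0.149) and its light chain B2m (-0.18, adjusted p = 0.850) did not pass, with 1.698 on WD and -2.06 on CD for B2m. Among 15 cytokines and chemokines 3 rose and 0 fell (2 rises and 0 falls after quantile normalization), while 13.4% of all genes tested were called up. The rises included the interferon-gamma target Cxcl9 (5.098 to 22.1 FPKM in KO (median 11.4) and 0.528 to 5.82 FPKM in WT (median 3.55), log2 difference 1.55 ± 0.21 SE, limma adjusted p = 0.000315) and the chemokine Ccl9 (1.898). Of 24 acute phase genes 1 rose, Serpina3m (1.28), against 6 rises and 0 falls without WT on WD 2. Quantile normalization ended the call of Serpina3m (adjusted p = 0.0512).

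Several of the largest rises belong to none of these pathways. Tff3, a trefoil peptide of mucosal surfaces (mm10 chromosome 17, 31125306 to 31129646, minus strand), measured 37.1 to 323 FPKM in KO (median 117) and 0 to 13.03 FPKM in WT (median 2.59), a log2 difference of 4.71 ± 0.37 SE (limma adjusted p = 2.94e-06). The trypsin inhibitor Spink3 measured 12.4 to 100.01 FPKM in KO (median 46.5) and 0 to 1.28 FPKM in WT (median 0.605), a log2 difference of 4.58 ± 0.40 SE (limma adjusted p = 7.03e-06). The neurexin gene Nrxn2 (mm10 chromosome 19, 6418731 to 6544169, plus strand) measured 65.7 to 145 FPKM in KO (median 104) and 2.24 to 6.05 FPKM in WT (median 3.29), a log2 difference of 4.55 ± 0.21 SE (limma adjusted p = 4.70e-08). For these 3 genes the median WT library was under 4 FPKM and no WT library reached the lowest KO library. The calcium-binding Cib3 (4.06) and Meig1 (3.46), a gene known from male meiosis, rose likewise.

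The Ly6 genes encode small GPI-anchored surface proteins. Of 11 listed members of the family and its relatives, 5 were tested and 4 were at 0 in every library. All 5 tested rose, with a median of 3.61, under each scaling tried, in the fit with library set and without any 1 library. A gene could reach the level to be tested through its KO libraries alone, which favours members that rise. Ly6a measured 46.3 to 102 FPKM in KO (median 68.5) and 2.27 to 9.04 FPKM in WT (median 5.06), a log2 difference of 3.61 ± 0.22 SE (limma adjusted p = 2.00e-07) and Ly6c1 8.35 to 30.9 FPKM in KO (median 22.9) and 0 to 1.55 FPKM in WT (median 0.188), a log2 difference of 4.09 ± 0.28 SE (limma adjusted p = 9.27e-07). Ly6e (1.74) and Ly6c2 (1.66) rose, with every KO library above every WT library. Ly6d measured 43.6 to 379 FPKM in KO (median 159) and 0 to 57.1 FPKM in WT (median 7.902) with overlapping groups (log2 difference 4.29 ± 0.35 SE, limma adjusted p = 3.62e-06). Ly6a and Ly6c2 also mark blood and endothelial cells, whose part in the result was not tested. Of the endothelial markers 4 of 12 rose, with a summed FPKM of 165 to 274 FPKM in KO and 107 to 172 FPKM in WT, and of the Kupffer cell markers 9 of 15 rose (13.4% of all genes tested were called up). T, B and NK cell markers had 0 calls among 5 tested, Trac, Nkg7 and Ncr1 were listed at 0 in every library, and the list's summed FPKM was 3.33 to 30.97 FPKM in KO and 7.19 to 21.6 FPKM in WT.

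Some genes of fatty acid synthesis fell. Of 21 tested genes of fatty acid and triglyceride synthesis 0 rose and 4 fell (median -0.22, 0 rises and 7 falls after quantile normalization). Scd1, the stearoyl-CoA desaturase (mm10 chromosome 19, 44394455 to 44407879, minus strand), measured 37.1 to 937 FPKM in KO (median 455) and 369 to 3902 FPKM in WT (median 1625), a log2 difference of -2.198 ± 0.33 SE (limma adjusted p = 0.000608), with overlapping groups over both diets and differences of -1.82 on WD and -2.57 on CD. The elongase Elovl5 (-0.996) and liver pyruvate kinase Pklr (-1.29), which supplies pyruvate for the pathway, fell too. The synthase Fasn (-0.12, adjusted p = 0.714) and the regulator Srebf1 (-1.07, adjusted p = 0.161) did not pass, and Srebf1 had 0.45 on WD and -2.59 on CD. In fatty acid oxidation 1 rose and 2 fell among 26 (median -0.08, 1 rise and 3 falls after quantile normalization), while 15.1% of all genes tested were called in either direction. Ppara (-0.15, adjusted p = 0.467) and Cpt1a (-0.34, adjusted p = 0.188) did not pass. The hydroxylase Cyp4a14 was the rise (1.603), a call that ended without KO on CD 3 (adjusted p = 0.0540).

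Among 16 lipid droplet genes 3 rose and 4 fell (2 rises and 5 falls after quantile normalization). Over all genes tested 13.4% were called up and 1.67% down, and 4.9% and 3.23% after quantile normalization. The droplet dehydrogenase Hsd17b13 measured 337 to 454 FPKM in KO (median 391) and 164 to 241 FPKM in WT (median 178), a log2 difference of 1.07 ± 0.12 SE (limma adjusted p = 5.45e-05), made of 1.07 on WD and 1.06 on CD. The fatty acid transporter Cd36 rose (1.102) and the fatty acid-binding protein Fabp1 fell (-0.93). In cholesterol synthesis and uptake 2 rose and 0 fell among 22 (median 0.12, 1 rise and 1 fall after quantile normalization, 1 and 2 after median centring), a share of rises under that of all genes. The sterol demethylase Cyp51 rose (0.87). In bile acid synthesis and uptake 4 rose and 3 fell among 18, but scaling turned this balance (1 rise and 4 falls after quantile normalization, 1 and 4 after median centring). Cyp8b1, which makes cholic acid, rose (1.24), the uptake carriers Slco1b2 (-0.56) and Slco1a1 (-1.09) fell, and the rate-limiting Cyp7a1 did not pass (-0.52, adjusted p = 0.336).

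Carbohydrate and amino acid enzymes changed in both directions. Of 23 glycolysis, gluconeogenesis and glycogen genes 2 rose and 3 fell (15.1% of all genes tested were called in either direction), with a median of 0.08 (1 rise and 3 falls after quantile normalization, 0 and 3 after median centring). Lactate dehydrogenase Ldha measured 1.21 to 6.405 FPKM in KO (median 2.37) and 4.801 to 13.1 FPKM in WT (median 12.02), a log2 difference of -1.52 ± 0.23 SE (limma adjusted p = 0.000790). The glycogen branching enzyme Gbe1 rose (0.63), a call that ended with quantile normalization (adjusted p = 0.0532). Of 27 urea cycle and amino acid genes 5 rose and 3 fell, a balance that turned with scaling (2 rises and 4 falls after quantile normalization, 1 and 4 after median centring). There were 2 to 5 rises when a library was left out (2 without WT on CD 1, WT on CD 3 or KO on CD 3) and 2 to 5 falls (5 without WT on WD 2). The serine dehydratase-like Sdsl measured 21.2 to 58.8 FPKM in KO (median 32.1) and 4.99 to 13.96 FPKM in WT (median 8.45), a log2 difference of 1.92 ± 0.20 SE (limma adjusted p = 2.86e-05), and ornithine aminotransferase Oat 113 to 284 FPKM in KO (median 214) and 209 to 852 FPKM in WT (median 542), a log2 difference of -1.54 ± 0.30 SE (limma adjusted p = 0.00432).

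Genes of the pericentral hepatocyte, around the central vein, changed in both directions. Of 19 tested 3 rose and 6 fell (median -0.49, 2 rises and 8 falls after quantile normalization, and 3 of each without KO on CD 3). Over all genes tested 13.4% were called up and 1.67% down, and 4.9% and 3.23% after quantile normalization. The rises were Cyp2a5, Cyp1a2 and the ammonium transporter Rhbg (0.82), and the falls included Cyp2e1, Oat and glutamine synthetase Glul, which measured 162 to 313 FPKM in KO (median 223) and 317 to 688 FPKM in WT (median 427), a log2 difference of -0.84 ± 0.14 SE (limma adjusted p = 0.00109), with -1.46 on WD and -0.22 on CD. The call of Rhbg, named after its value was seen, ended with quantile normalization (adjusted p = 0.142), in the fit with library set (0.0561) and without 4 libraries taken singly. Of 18 periportal genes 8 rose and 1 fell (median 0.41, 5 rises and 1 fall after quantile normalization), among them the phospholyase Etnppl (1.15) and the P450 Cyp2f2 (1.27). Of 22 general hepatocyte markers 4 rose and 3 fell, with a median of 0.18, that of all genes (4 rises and 4 falls after quantile normalization, 1 and 4 after median centring, 7 rises and 5 falls without WT on WD 2). Apoc3 (0.58) and the asialoglycoprotein receptor subunit Asgr2 (1.35) were among the rises. Albumin, Alb, which defines the tissue, was at 2576 to 3858 FPKM in KO (median 3255) and 1942 to 2814 FPKM in WT (median 2279).

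Some genes of the cell cycle rose. Of 37 replication and mitosis genes listed, 24 were tested, of which 8 rose and 0 fell (median 0.55, 5 rises and 0 falls after quantile normalization, 3 and 0 after median centring, 5 rises and 0 falls without KO on CD 3). A gene could reach the level to be tested through its KO libraries alone, as Top2a did, which favours members that rise. Over all genes tested 13.4% were called up, and 4.9% after quantile normalization. The mitotic kinase Cdk1 measured 2.69 to 8.13 FPKM in KO (median 7.34) and 1.22 to 2.46 FPKM in WT (median 1.71), a log2 difference of 1.28 ± 0.15 SE (limma adjusted p = 7.98e-05) and the topoisomerase Top2a 1.25 to 8.31 FPKM in KO (median 3.09) and 0.113 to 0.812 FPKM in WT (median 0.6097), a log2 difference of 1.31 ± 0.20 SE (limma adjusted p = 0.000657), both separate in all libraries. Cyclin D1, Ccnd1, measured 26.5 to 68.6 FPKM in KO (median 41.1) and 6.74 to 28.1 FPKM in WT (median 12.4), a log2 difference of 1.63 ± 0.27 SE (limma adjusted p = 0.00118). Mki67 did not reach the level to be tested (0.374 to 1.91 FPKM in KO, median 0.760, and 0.0573 to 0.543 FPKM in WT, median 0.209). Of 12 p53 response genes 3 rose, and 0 with quantile normalization or median centring. The p53 target Cdkn1a had a difference of -0.06 (adjusted p = 0.902), made of -0.895 on WD and 0.78 on CD. Mdm2, which degrades p53, was among the 3 (0.797, adjusted p = 0.0734 with quantile normalization).

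The unfolded protein response and the proteasome had shares of calls under the 13.4% of all genes called up. Of 27 unfolded protein response genes 3 rose (median 0.19, 8 rises and 1 fall without WT on WD 2), led by the pseudokinase Trib3, 14.2 to 33.2 FPKM in KO (median 21.2) and 1.97 to 7.12 FPKM in WT (median 3.78), a log2 difference of 2.28 ± 0.23 SE (limma adjusted p = 2.67e-05). The chaperone Hspa5 (0.62, adjusted p = 0.172) and Ddit3 (-0.08, adjusted p = 0.893) did not pass. Of 32 proteasome subunits 2 rose (median 0.06) and 0 with quantile normalization or the set as a term. Of 38 respiratory chain subunits 9 rose (5 rises and 0 falls after quantile normalization, 0 and 0 after median centring), with Sdha at 0.62, and of 38 ribosomal proteins 7 rose (0 rises and 0 falls after quantile normalization, 3 to 7 rises when a library was left out); the list medians, 0.20 and 0.198, were near that of all genes. Of 30 complement and coagulation genes 8 rose and 2 fell (2 rises and 4 falls after quantile normalization, 2 and 2 in the fit with library set, 4 rises and 3 falls without WT on CD 3 and 5 rises and 2 falls without KO on CD 3), the falls being C6 and the terminal component C8a (-1.04). Of 17 iron genes 2 rose and of 15 clock genes 2 rose, and in both lists 0 passed with quantile normalization.

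Markers of liver cells in which TBG does not drive Cre also differed. Of 15 tested markers of Kupffer cells, the resident macrophages, 9 rose and 0 fell (median 0.904, 5 rises and 0 falls after quantile normalization), and their summed FPKM was 156 to 513 FPKM in KO and 108 to 233 FPKM in WT, with overlap. The lectin Clec4f measured 13.1 to 32.5 FPKM in KO (median 24.9) and 6.44 to 16.8 FPKM in WT (median 9.37), a log2 difference of 1.13 ± 0.18 SE (limma adjusted p = 0.000997), and the folate receptor Folr2 6.58 to 31.05 FPKM in KO (median 22.4) and 1.84 to 13.7 FPKM in WT (median 5.99), a log2 difference of 1.59 ± 0.27 SE (limma adjusted p = 0.00170). The resident marker Timd4 had a difference of 0.43 (adjusted p = 0.256), and the pan-macrophage marker Adgre1 was too low to be tested (0 to 0.225 FPKM in KO, median 0.0455, and 0 to 0.156 FPKM in WT, median 0.0308). Of 9 tested markers of recruited macrophages 2 rose, Ly6c2 and Cd36, genes also counted above (13.4% of all genes tested were called up).

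For sinusoidal endothelium 4 of 12 rose and 0 fell (median 0.57, 1 rise and 0 falls after quantile normalization), with a summed FPKM of 165 to 274 FPKM in KO and 107 to 172 FPKM in WT, and the hyaluronan receptor Lyve1 measured 2.08 to 10.4 FPKM in KO (median 5.66) and 0.304 to 3.64 FPKM in WT (median 1.62), a log2 difference of 1.36 ± 0.24 SE (limma adjusted p = 0.00234). Over all genes tested 13.4% were called up and 1.67% down, and 4.9% and 3.23% after quantile normalization. Of 17 stellate cell and matrix genes 1 rose (0 with quantile normalization), and collagen Col1a1 had a difference of 0.01 (adjusted p = 0.985). Of 6 tested ductular markers 1 rose, Tff3; Krt19 (0 to 2.75 FPKM in KO, median 0.267, and 0 to 1.48 FPKM in WT, median 0.595) and Epcam (0 to 1.39 FPKM in KO, median 0.131, and 0 to 0.477 FPKM in WT, median 0.262), which define that epithelium, were too low to be tested. Of 8 tested fetal or regenerating liver genes 3 rose, Spink3 and Igf2 (0.86) among them. Of 6 erythroid genes 1 fell, the erythroid aminolevulinate synthase Alas2 (12.3 to 75.5 FPKM in KO (median 17.02) and 42.3 to 151 FPKM in WT (median 69.8), log2 difference -1.74 ± 0.35 SE, limma adjusted p = 0.00498), and of 3 neutrophil markers none was called. The summed FPKM was 341 to 2118 FPKM in KO and 337 to 1254 FPKM in WT for the erythroid list and 12.96 to 233 FPKM in KO and 0.696 to 159 FPKM in WT for the neutrophil list. The part of these cell types in the results above was not tested.

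**Figure D4:**
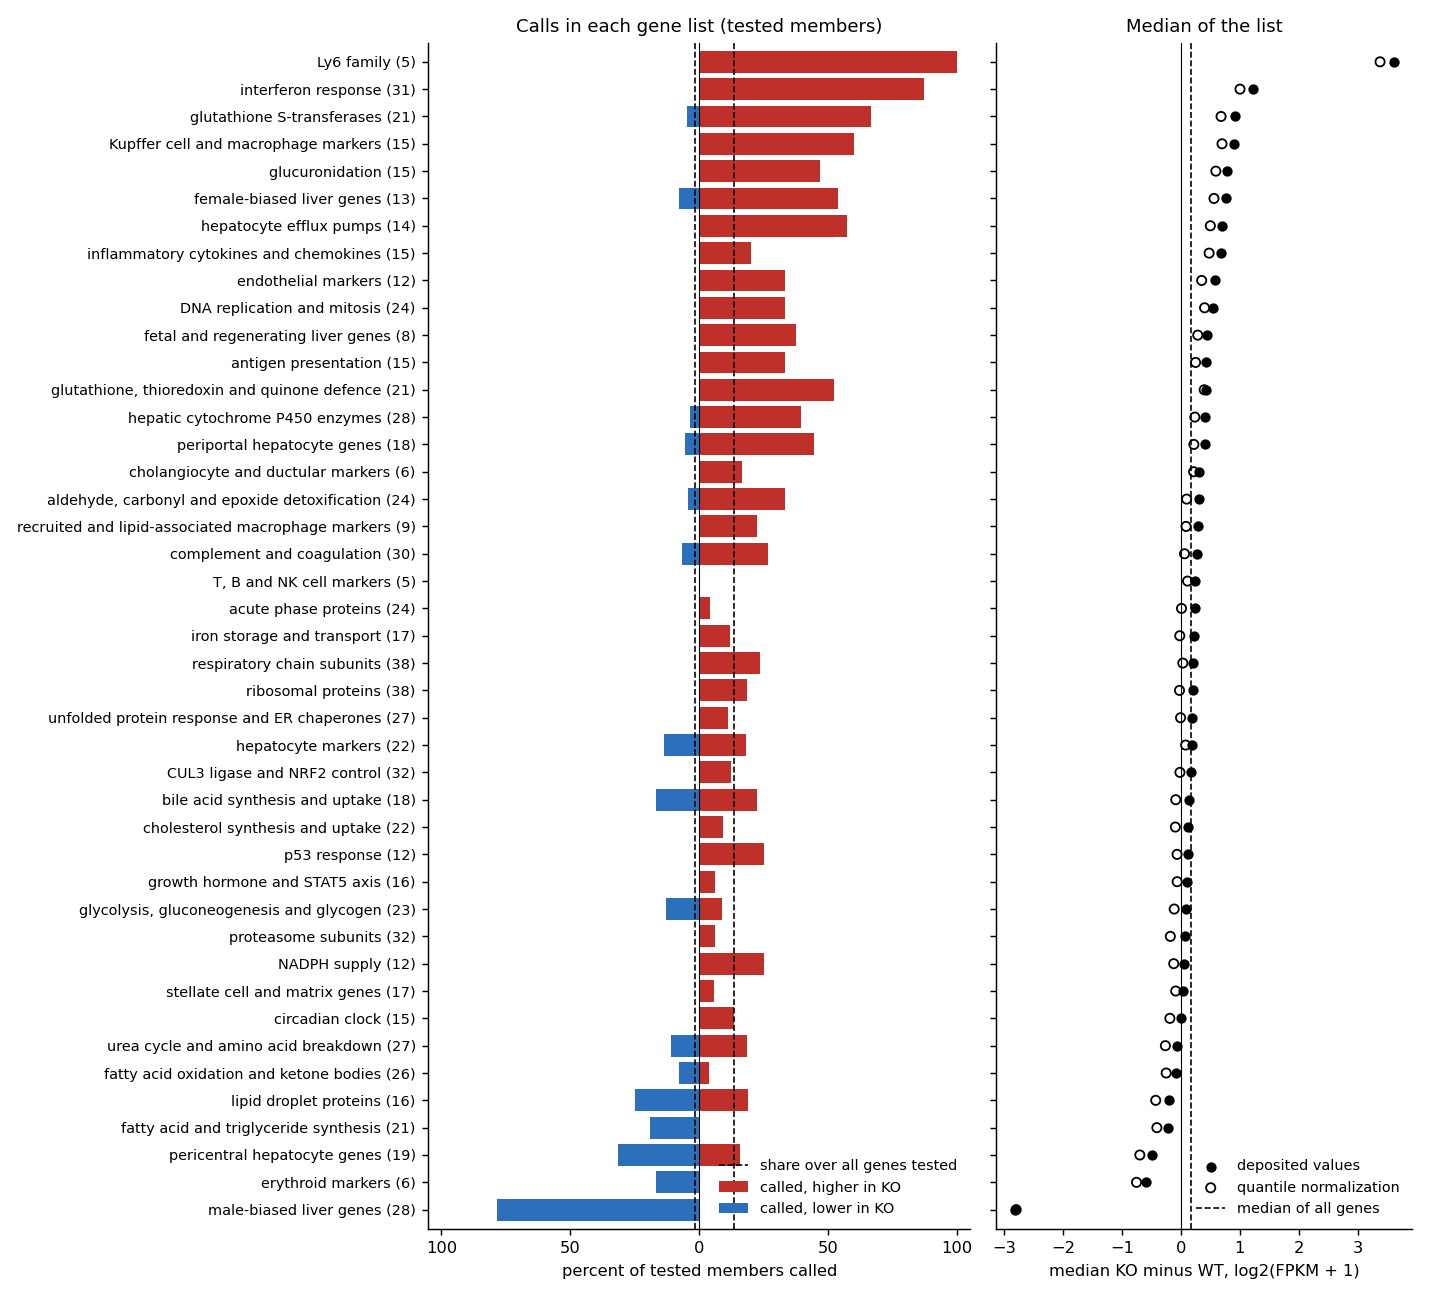
Left, percent of the tested members of each gene list called higher (red) or lower (blue) in KO, with dashed lines at the shares over all genes (13.4% and 1.67%). Right, median KO minus WT difference of each list in log2(FPKM + 1) for the deposited values (filled) and after quantile normalization (open); interferon response stands at 1.21 and male-biased genes at -2.82, and quantile values lie to the left for most lists.

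Averaging over the diets called 353 genes that neither diet called alone, 318 up and 35 down. Of the 6 with the smallest p, 5 are described, and each of these had differences within 0.1 of each other on the diets. The nuclear receptor Nr1i3 (CAR), which controls drug metabolism, measured 29.5 to 43.7 FPKM in KO (median 37.3) and 21.3 to 31.0 FPKM in WT (median 24.9), a log2 difference of 0.48 ± 0.11 SE (limma adjusted p = 0.00874), with 0.47 on WD and 0.49 on CD. The membrane protein Smim4 (0.85), the lipid transfer protein Pitpnc1 (0.56), the myeloid lectin Clec7a (1.01) and the kinase activator Prkra (0.72) were the others. The KO and WT libraries of Pitpnc1 and Prkra did not overlap. Quantile normalization ended the calls of Smim4 (adjusted p = 0.0516), Pitpnc1 (0.0976), Nr1i3 (0.232) and Prkra (0.0791).

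For a few genes the average does not describe either diet. The effect differed between the diets for 37 of all genes tested (0.34%) and 10 of the 1640 called on the average. Since genotype coincides with library set on CD, a difference by diet cannot be told apart here from one by set. In 40 of those 1640 genes the differences had opposite signs on the diets. Cux2, a transcription factor higher in female liver, averaged 2.47, made of 0.64 on WD and 4.31 on CD (limma adjusted p of the difference = 0.00983). It measured 12.8, 17.8 and 29.5 FPKM in KO on CD, and 0 to 0.178 FPKM in WT (median 0.0363) over both diets. Cidea, a lipid droplet protein of fatty liver, was at 0 to 0.124 FPKM in KO over both diets, while the WT libraries on WD had 21.7, 5.96, 14.2 and 4.47 FPKM (difference of effects -3.38, limma adjusted p = 0.0241). Dhodh, an enzyme of pyrimidine synthesis, had -0.09 on WD and 2.15 on CD, and Tinag, a basement membrane protein, 2.74 on WD and 0.78 on CD. The gene model Gm4963 had 0.83 on WD and -2.61 on CD, and 9030619P08Rik had 0.06 on WD and 2.42 on CD.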

How the data were processed

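Liver RNA from 14 libraries was measured as deposited FPKM, one table of 43548 genes. Per the submitters' processing notes the authors used Cufflinks and mm10, with no version given. FPKM hide the read depth, so no counting error can be given, and no per-sample column went unused. Yam1 held a placeholder of 999999999 in 8 libraries and was left out.

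Genes at 1 FPKM or more in at least 3 libraries were tested on log2(FPKM + 1) with limma 3.58.1 in R 4.3.3 (group means, intensity trend, 10 residual degrees of freedom). A gene could pass this filter through libraries of 1 genotype alone, which in lists of low genes favours members that are higher in that genotype. The average weighs both diets' KO minus WT contrasts equally, and p-values were Benjamini-Hochberg adjusted over all tested genes. The fit was tested on simulated data. Summed families were tested by exact permutation of genotype within diet (1400 arrangements). Alternatives were quantile normalization, median centring, other pseudocounts and filters, library set, an additive fit, a replicate block and leaving out libraries.

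The members and the 44 gene lists were chosen with earlier results of these data known. Named are Cul3, the 12 largest non-overlapping rises and falls with a group mean of at least 5 FPKM (unnamed gene models left out), at most 5 members per list by smallest p, genes that define a list, 6 genes called on neither diet and 6 whose effect differs between diets. Some of the genes so chosen are not reported here. Promoter and genome positions came from RefSeq GRCm38.p6 and GENCODE M21.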

Additional observations from a re-analysis of the deposited data

Results flagged for a closer look

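In 20 of 305 groups of 4 libraries on WD, the highest or lowest library of a named gene stood apart from the other 3 by Dixon's criterion on the log2(FPKM + 1) scale. Chance alone flags about 1 group in 20 where values are not tied. A group with 3 libraries at 0 is flagged at any value of the other above 0, as for Cidea, Spink3 and Adgre1 below. KO on WD 2 stood apart for Cidea (0.124 FPKM against 0 in each of the others), Prlr (15.9 FPKM against 28.4 to 31.2) and Mki67 (1.91 FPKM against 0.760 to 0.812). KO on WD 3 stood apart for Ugdh (104 FPKM against 251 to 267), Hspa5 (441 FPKM against 305 to 316) and B2m (384 FPKM against 1045 to 1182). KO on WD 4 stood apart for Ube2m (39.4 FPKM against 27.5 to 29.2) and Igf2 (2.63 FPKM against 1.92 to 2.02). WT on WD 1 stood apart for Cyp8b1 (140.2 FPKM against 58.4 to 65.2), Ccl9 (18.5 FPKM against 4.19 to 5.305), Folr2 (13.7 FPKM against 5.99 to 6.82) and Bcl6 (3.41 FPKM against 7.84 to 7.92). WT on WD 2 stood apart for Ifit3 (0.661 FPKM against 1.05 to 1.08) and Timd4 (0.3101 FPKM against 1.15 to 1.29). WT on WD 3 stood apart for Spink3 (0.605 FPKM against 0 in each of the others), Akr1c19 (75.5 FPKM against 111 to 119) and Adgre1 (0.0308 FPKM against 0 in each of the others). WT on WD 4 stood apart for Tff3 (0 FPKM against 2.23 to 2.59), Mup1 (8303 FPKM against 2190.4 to 2493) and Cyp3a41b (3.26 FPKM against 0 to 0.2602).

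The KO effect differed between the diets, by the limma contrast of WD minus CD, for 7 named genes. It was more positive on WD for Gm4963 (log2 difference 3.44, adjusted p = 0.000558) and Tinag (log2 difference 1.96, adjusted p = 0.0241). It was more negative on WD for 9030619P08Rik (log2 difference -2.36, adjusted p = 0.00216), Cux2 (log2 difference -3.67, adjusted p = 0.00983), Dhodh (log2 difference -2.23, adjusted p = 0.0123), Cidea (log2 difference -3.38, adjusted p = 0.0241) and Abcg5 (log2 difference -1.48, adjusted p = 0.0241). No cause of any of these was tested, and on CD the effects of genotype and of library set cannot be told apart.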

How the results depend on the processing

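As deposited, 1640 genes were called, 1459 up and 181 down. Quantile normalization gave 884 (533 up and 351 down) and median centring 824 (485 and 339). Without KO on WD replicates 3 and 4 together there were 838 (744 and 94), and with WD libraries of set 1 alone, a choice added after seeing the data with 3 KO and 2 WT libraries, 130 (108 and 22), which has fewer samples. Leaving out single libraries gave 1145 to 2161 calls, 1018 to 1834 up and 127 to 327 down. The cause of these moves was not tested beyond what fewer samples give. The replicate block gave 1156 calls (1030 and 126). Replicate numbers did not pair the libraries, since 2 of 18 same-numbered pairs had residual correlations over 0.1 (-0.297 to 0.158). Of 127 named called genes, 113 kept their call with quantile normalization, 112 with median centring, 119 with the set term, 121 with the block, 113 without KO on WD replicates 3 and 4, 122 with no filter and 120 to 127 without a single library, and 0 reversed. FPKM hide the depth, so which low genes lacked reads to show a change is not known. Counts of 1 or 2 calls in a list varied between 0 and 6 when single libraries were left out.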

Other observations

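The number of genes at 1 FPKM or more was 8879 to 9970 in KO and 8600 to 9268 in WT (exact permutation within diets, two-sided p = 0.00429). The summed FPKM ran from 443818 to 523079 over the 14 libraries.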
